A study of Homo sapiens with 12 samples.

Results

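MiR-192, miR-194 and miR-215 are miRNAs of endoderm-derived epithelia such as liver and gut, and here their levels were followed in 2 human embryonal carcinoma cell (hECC) lines, 2102Ep and NTera-2, after RNAi against the transcription factor SOX2. The members were taken from the normalised table as every assay named for miR-122, miR-192, miR-194 or miR-215, passenger strands excluded, which gave hsa-miR-192, hsa-miR-194 and hsa-miR-215, 3 of 501 assays. For miR-122 no value was analysed here. All cells were transfected for 6 h, either with the SOX2 siRNA (siSOX2) or with a non-targeting negative control siRNA (NC), and RNA was taken 72 h later. The 2102Ep cells (passage 35 to 50) received 15 nM siRNA with Lipofectamine 2000 and the NTera-2 cells (passage 40 to 50) 30 nM with Lipofectamine RNAiMAX, so in comparisons between the lines the line, the dose and the reagent cannot be told apart. Each of the 4 groups held 3 samples, labelled as biological replicates. The knock-down is transient and was made in tumour lines, and SOX2 mRNA was not among the assays. The paper on these samples reports more SOX2 mRNA left after siSOX2 in NTera-2 than in 2102Ep cells. It detected no SOX2 protein after siSOX2 in either line.

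MiRNAs silence mRNAs through base pairing of their seed, the stretch of bases near the 5′ end, so miRNAs with the same seed share most of their targets. MiR-192 is abundant in liver, kidney and intestine, and miR-215 and miR-194 in intestinal epithelium, where hepatocyte nuclear factors drive their transcription. All 3 are also known to be raised by the tumour suppressor p53. Both copies of the miR-194 gene lie beside a gene of the other seed family, one next to miR-192 and one next to miR-215, and each pair is transcribed as a cluster.

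The mature sequences are shown because they separate the members into 2 seed families and show how little sequence tells 2 of the assays apart. They are RefSeq sequences (GRCh38.p14, all on the minus strand), 5′ to 3′, with the seed (bases 2 to 8) in capitals.
miR-192: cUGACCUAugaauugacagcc
miR-215: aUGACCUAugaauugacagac
miR-194: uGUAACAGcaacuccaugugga
MiR-192 and miR-215 share 19 of 21 bases and the whole seed, and they differ by C1A and C20A, with the base of miR-192 first and positions counted from the 5′ end. Of the 2370 mature miRNA names in the RefSeq table, 2 carried this seed, namely these. The seed of miR-194 was found in no other mature miRNA there. How far the miR-192 and miR-215 assays read each other's RNA was not tested.

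The mature miR-192 lies at chr11:64891203-64891223 in the hairpin of MIR192, and a copy of miR-194 at chr11:64891404-64891425 in the hairpin of MIR194-2, both within the long non-coding gene MIR194-2HG. Between these hairpins lie 108 bases. Mature miR-215 lies at chr1:220117916-220117936 in MIR215 and the other copy of miR-194 at chr1:220118206-220118227 in MIR194-1. Both chromosome 1 hairpins lie within the span of the protein-coding gene IARS2, which is on the plus strand, and within the non-coding LOC124904515 on their own strand. The 2 mature miR-194 copies are identical in sequence, so the single miR-194 assay reads the sum of both clusters, whereas miR-192 and miR-215 each come from 1 of them.

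Levels were read as Ct, the PCR cycle at which the signal of an assay crosses a threshold, so more RNA gives a lower Ct, and a step of 1 cycle corresponds to about 1 log2 unit. A value counted as measured when its raw Ct lay below 40. By this rule miR-192, miR-194 and miR-215 were each measured in 3 of 3 samples of all 4 groups, with raw Ct between 20.86 and 26.05. All 3 assays were on card A of the array pair, where the authors' dCt is the raw Ct less the average of U6, a small nuclear RNA, and miR-16 in the same sample. Across the series a 2102Ep sample had 420 to 431 measured assays and an NTera-2 sample 449 to 451. These are whole-culture RNA samples, in which fewer cells of a type and less RNA per cell cannot be told apart.

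In 2102Ep cells none of the 3 miRNAs passed the test after SOX2 knock-down. The dCt of miR-192 was 2.97, 4.88 and 4.61 in the NC samples and 4.33, 4.78 and 4.13 in the siSOX2 samples. The siSOX2 values lay within the range of the controls, of which replicate 1 stood apart at the highest miR-192 level. The log2 difference of siSOX2 from NC was -0.26 ± 0.47 (SE, adjusted p = 0.81 by limma).

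MiR-194 was the steadiest of the 3 in this line. Its dCt was 4.13, 3.29 and 3.66 in NC and 3.45, 3.40 and 3.66 in siSOX2 samples of 2102Ep. All siSOX2 values fell inside the control range, and the log2 difference was 0.19 ± 0.24 (SE, 95% interval from -0.35 to 0.73, adjusted p = 0.71 by limma).

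MiR-215 had the widest spread. Its dCt in 2102Ep cells was 4.19, 5.73 and 2.51 in NC and 5.16, 4.60 and 6.44 in siSOX2 samples. NC replicate 3 held the most miR-215 and siSOX2 replicate 3 the least, and the groups overlapped. The log2 difference was -1.26 ± 0.70 (SE, 95% interval from -2.81 to 0.29, adjusted p = 0.30 by limma). Single samples moved this value: it was -2.05 without NC replicate 2 (adjusted p = 0.047), -0.45 without NC replicate 3 (adjusted p = 0.75) and -0.74 without siSOX2 replicate 3 (adjusted p = 0.58). Of all 431 assays tested in 2102Ep cells, 63 (14.6%) passed an adjusted p of 0.05, against 0 of these 3, and the median log2 difference was -0.0030. At an unadjusted p under 0.05, 109 (25.3%) of all assays and 0 of the 3 passed. NC and siSOX2 samples were apart for 32% of all assays and for 0 of the 3.

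In NTera-2 cells miR-194 was the member with the largest difference, lower in all 3 siSOX2 samples than in any control, but it missed the adjusted threshold. Its dCt was 10.58, 10.19 and 10.60 in NC and 11.37, 11.04 and 11.42 in siSOX2 samples. The groups did not overlap, the siSOX2 samples lying between 11.04 and 11.42. The log2 difference was -0.82 ± 0.25 (SE, 95% interval from -1.37 to -0.27), which is a 1.76-fold lower level, with an adjusted p of 0.094 by limma. Groups apart with siSOX2 lower were found for 22.8% of the 451 assays tested in this line, and the median of all assays was itself -0.27. Against the mean of all assays on the card in place of miR-16 and U6, the difference of miR-194 was -0.59 (adjusted p = 0.32), and against U6 alone -1.001 (adjusted p = 0.079). It passed the adjusted threshold under none of the 19 alternatives run.

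The miRNAs of the other seed family gave values near 0 in NTera-2 cells. MiR-192 had a dCt of 8.52, 7.66 and 8.51 in NC and 8.48, 7.86 and 8.22 in siSOX2 samples. The siSOX2 values lay inside the control range, and the log2 difference was 0.04 ± 0.47 (SE, 95% interval from -1.01 to 1.09, adjusted p = 0.98 by limma). For miR-215 the dCt was 7.40, 6.68 and 7.02 in NC and 6.92, 7.18 and 7.19 in siSOX2 samples. These overlapped as well, with a log2 difference of -0.06 ± 0.71 (SE, 95% interval from -1.64 to 1.51, adjusted p = 0.98 by limma). These intervals use the spread of all 12 samples. With the 6 NTera-2 samples alone they ran from -0.77 to 0.85 for miR-192 and from -0.69 to 0.56 for miR-215. Of all assays, 25 (5.54%) passed in NTera-2 cells, or 9 with the replicate number as a block, and 0 of the 3 passed by either. At an unadjusted p under 0.05, 99 assays (22%) passed, among them miR-194 and neither of the other members.

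**Figure D1:**
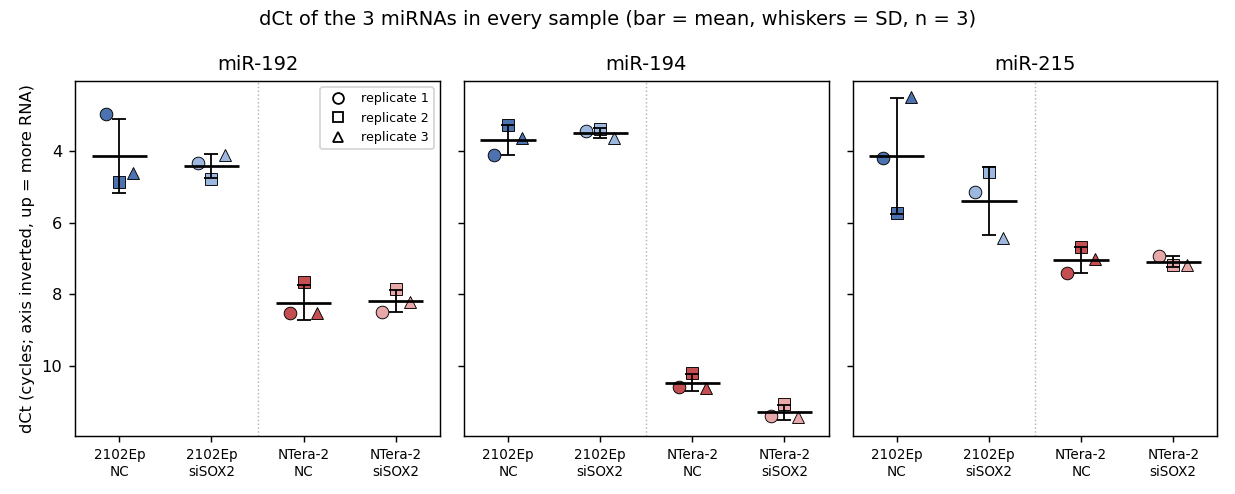
dCt (cycles, axis inverted so that up means more RNA) of miR-192, miR-194 and miR-215 in each of the 12 samples. Points are replicates, bars group means and whiskers SD (n = 3). The NTera-2 siSOX2 samples of miR-194 lie below all controls of that line, while the 2102Ep controls of miR-215 spread from 2.51 to 5.73.

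Whether the lines responded differently was tested on the difference of both responses. For miR-194 the response in NTera-2 minus that in 2102Ep cells was -1.01 ± 0.34 (log2, SE, adjusted p = 0.10 by limma). For miR-215 it was 1.20 ± 0.98 (SE, adjusted p = 0.55) and for miR-192 0.30 ± 0.65 (SE, adjusted p = 0.84). The miR-215 value was 1.99 without 2102Ep NC replicate 2, 0.38 without 2102Ep NC replicate 3 and 0.68 without 2102Ep siSOX2 replicate 3, none of them called. None of the 3 passed, where 24 of 384 assays (6.25%) did, or 4 with the replicate block. At an unadjusted p under 0.05, 22.7% of all assays passed, miR-194 among them.

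The passenger strand of the miR-192 hairpin, miR-192*, was measured on card B in all samples. Its sequence shows that it carries yet another seed.
miR-192*: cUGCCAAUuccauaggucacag
It gave log2 differences after siSOX2 of -0.90 ± 0.62 (SE, adjusted p = 0.43 by limma) in 2102Ep and -0.44 ± 0.63 (SE, adjusted p = 0.77) in NTera-2 cells. In both lines the NC and siSOX2 samples overlapped, as they did for miR-192. For the passenger strands of miR-194 and miR-215 no value was analysed here.

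The lists of related miRNAs give the surroundings of these values. Of 13 miRNAs named for endoderm-derived epithelia, islet, liver and pancreas, 10 had an assay. MiR-375, an islet and neuroendocrine miRNA, rose by 3.69 ± 0.22 (log2, SE) in 2102Ep and by 2.68 ± 0.22 in NTera-2 cells (adjusted p = 3.1e-06 and 0.00010 by limma). MiR-148a, abundant in liver, fell by 1.86 in 2102Ep cells (adjusted p = 0.0019), and miR-7, another islet miRNA, fell by 1.18 in NTera-2 cells (adjusted p = 0.026). The miR-375 and miR-148a calls held with every reference, and the miR-7 call was lost with the global mean (log2 difference -0.67, adjusted p = 0.31), the global median, RNU44 and RNU48, U6 alone (-1.17, adjusted p = 0.079) and the replicate block (adjusted p = 0.053), under which miR-375 still passed in NTera-2 cells (adjusted p = 0.0043). The others, 7 of 9 assays tested in the first line and 8 of 10 in the second, did not pass. Over all assays, 14.6% passed in 2102Ep and 5.54% in NTera-2 cells. Among those not passing were assays of the miR-200 family, which keeps epithelial cells epithelial. MiR-200c gave -0.85 in NTera-2 (adjusted p = 0.094 by limma) and miR-200b -0.57 in 2102Ep cells (adjusted p = 0.29). The paper, at a P-value of 0.05 or less, reports both as lower in these lines. The list median was -0.28 in 2102Ep and -0.60 in NTera-2 cells, beside -0.0030 and -0.27 over all assays.

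**Figure D2:**
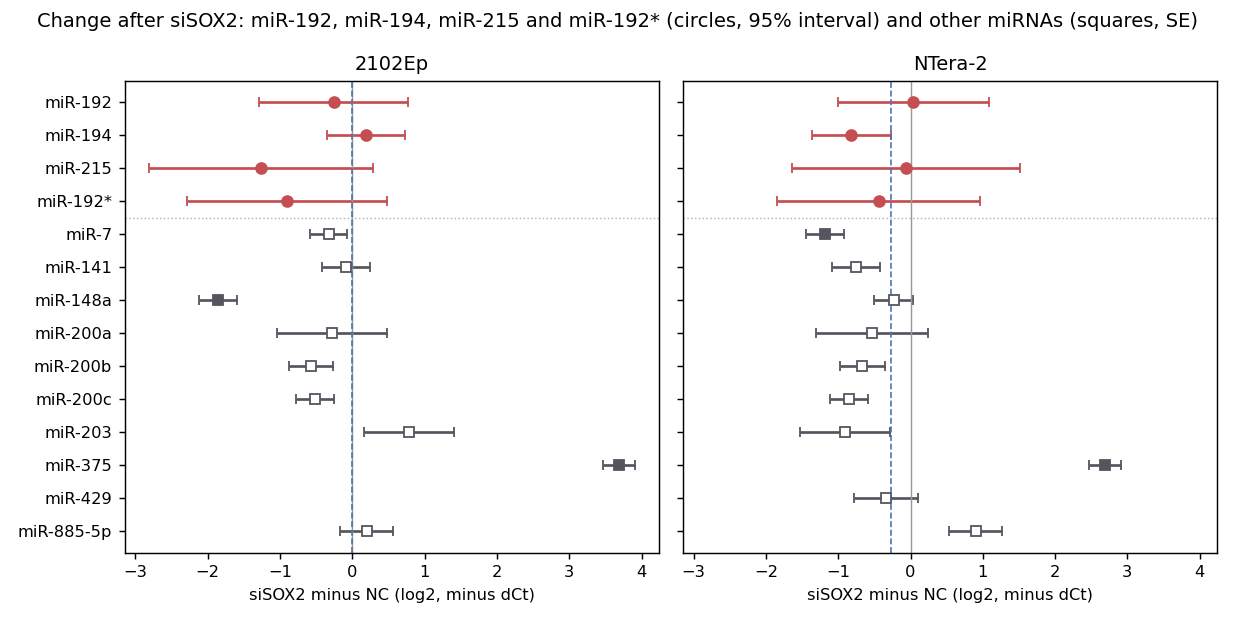
Log2 difference of siSOX2 from NC (minus dCt) in 2102Ep (left) and NTera-2 cells (right) for miR-192, miR-194, miR-215 and miR-192* (circles, 95% interval) and for miRNAs of endoderm-derived epithelia (squares, SE, filled where adjusted p is under 0.05; miR-429 was not tested in 2102Ep). The dashed line is the median of all assays. MiR-375 lies at 3.69 and 2.68, away from all other miRNAs drawn.

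Of 12 miRNAs named for p53, either induced by it or processed with its help, 9 had an assay. In 2102Ep cells 0 of 8 passed, beside 14.6% of all assays. The largest differences were those of miR-143 (3.48, adjusted p = 0.068) and miR-605 (-1.003, adjusted p = 0.57). MiR-143, measured in 2 of 3 siSOX2 samples of this line, did pass with the replicate block (4.36, adjusted p = 0.016 by limma). In NTera-2 cells 1 of 8 passed, beside 5.54% of all assays. It was miR-145, which is known to act against pluripotency factors and rose by 1.49 ± 0.26 (log2, SE, adjusted p = 0.012). This call held with all 6 references but not with the replicate block (adjusted p = 0.068). The list medians were -0.03 and -0.41. MiR-103 and miR-107, which differ by little sequence, are on this list and their assays may share signal.

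Between the lines, miR-194 had the largest difference of the 3 members. These comparisons were made on the raw Ct set against the mean Ct of the 224 card A assays measured in all 12 samples, a level that is positive where an assay had more RNA than that mean. On this scale miR-194 stood at 1.70, 2.87 and 2.28 in 2102Ep NC samples and at -0.87, -0.59 and -1.06 in NTera-2 NC samples. In the siSOX2 samples it stood at 2.50, 2.57 and 2.48 in 2102Ep and at -1.36, -1.24 and -1.70 in NTera-2 cells. The lines did not overlap in either arm. NTera-2 cells had 8.73-fold less miR-194 than 2102Ep cells in the NC arm (log2 difference -3.13 ± 0.28, SE, adjusted p = 2.2e-06 by limma) and 15.4-fold less in the siSOX2 arm (-3.95 ± 0.28, SE, adjusted p = 4.5e-07). Of all 384 assays, 297 (77.3%) passed between the NC arms and 288 (75%) between the siSOX2 arms, so a call between these lines was the usual outcome, with 37% and 33.1% of assays called lower in NTera-2 cells. Assays without overlap between the lines made up 77.9% in the NC and 78.9% in the siSOX2 arms.

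MiR-192 did not pass between the lines on this scale. Its level was 2.86, 1.28 and 1.33 in 2102Ep NC, 1.61, 1.19 and 2.01 in 2102Ep siSOX2, 1.19, 1.95 and 1.03 in NTera-2 NC and 1.53, 1.94 and 1.51 in NTera-2 siSOX2 samples. All 4 groups overlapped. The log2 difference between the lines was -0.43 ± 0.43 (SE, adjusted p = 0.38 by limma) in NC and 0.05 ± 0.43 (SE, adjusted p = 0.91) in siSOX2 samples.

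On this scale miR-215 was the only member with a higher mean in NTera-2 cells in both arms, a direction that turned with U6, RNU44 and RNU48, or the deposited dCt as reference. Its level was 1.65, 0.43 and 3.43 in 2102Ep NC and 2.31, 2.92 and 2.52 in NTera-2 NC samples, which overlapped. In siSOX2 samples it was 0.78, 1.36 and -0.31 in 2102Ep and 3.08, 2.61 and 2.53 in NTera-2 cells, which did not. The log2 difference was 0.74 ± 0.65 (SE, adjusted p = 0.32 by limma) between the NC arms and 2.13 ± 0.65 (SE, 4.38-fold, adjusted p = 0.011) between the siSOX2 arms. The latter call was lost without 2102Ep siSOX2 replicate 3 (1.67, adjusted p = 0.051), and between the NC arms a call appeared without 2102Ep NC replicate 3 (1.54, adjusted p = 0.020). Between the siSOX2 arms miR-215 was called lower in NTera-2 cells with U6 (-2.46, adjusted p = 0.0042 by limma) and with the deposited dCt (-1.70, adjusted p = 0.035).

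By mean level, the order for miR-194 was 2102Ep siSOX2 (2.51), 2102Ep NC (2.29), NTera-2 NC (-0.84) and NTera-2 siSOX2 (-1.43). Only the middle step passed the test. For miR-215 the order was NTera-2 siSOX2 (2.74), NTera-2 NC (2.58), 2102Ep NC (1.84) and 2102Ep siSOX2 (0.61), in which no neighbours differed beyond their spread. For miR-192 the means ran from 1.82 in 2102Ep NC over 1.66 in NTera-2 siSOX2 and 1.60 in 2102Ep siSOX2 to 1.39 in NTera-2 NC samples, and the ranges of neighbours overlapped.

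The choice of reference RNA moved the comparison of the lines by several cycles. The mean Ct of U6 on card A was 14.9 in 2102Ep NC and 10.8 in NTera-2 NC samples, and that of miR-16 was 21.6 and 18.6. RNU44 lay at 17.3 and 16.3 and RNU48 at 18.5 and 16.8, whereas the mean over the 224 assays lay between 23.9 and 24.7 in all samples. With the deposited dCt, miR-194 had a log2 difference of -6.77 in NC samples, miR-192 had a difference of -4.07 (adjusted p = 5.2e-06) and miR-215 one of -2.89 (adjusted p = 0.0019), so miR-215 changed direction and miR-192 became a call. With RNU44 and RNU48 the values were -4.65 for miR-194, -1.95 for miR-192 (adjusted p = 0.0016) and -0.78 for miR-215 (adjusted p = 0.28). MiR-194 was called lower in NTera-2 cells in both arms under all 18 alternatives, with differences between -7.31 and -2.61 in NC and between -8.54 and -3.50 in siSOX2 samples. Which reference is level between the lines was not tested.

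**Figure D3:**
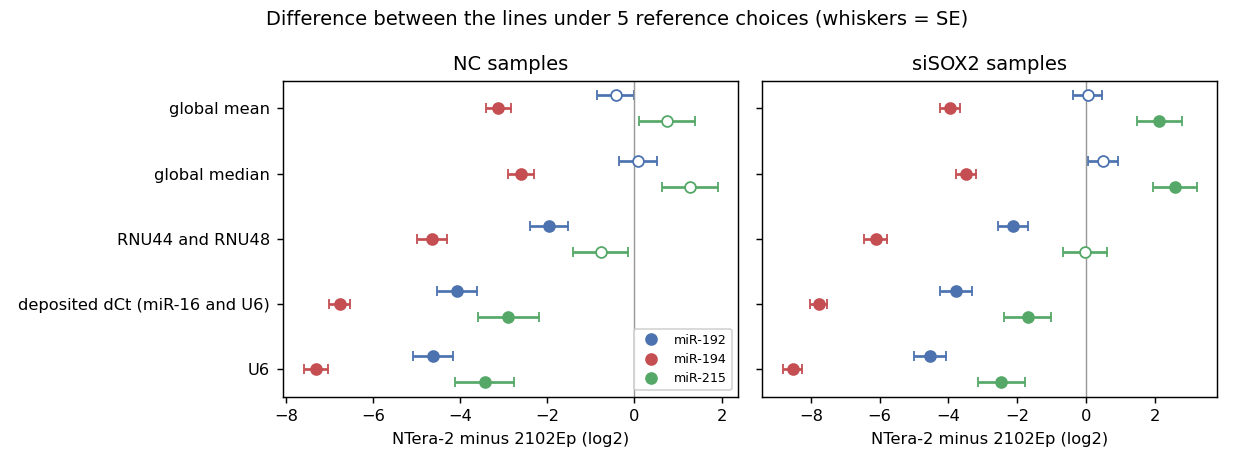
Log2 difference of NTera-2 from 2102Ep cells for miR-192, miR-194 and miR-215 in NC (left) and siSOX2 samples (right) under 5 reference choices. Points are limma estimates, whiskers SE, and filled points have an adjusted p under 0.05. MiR-194 lies furthest to the left under every choice, from -2.61 to -7.31 in NC samples, while miR-215 changes side.

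MiR-192*, set against the mean of its own card, was lower in NTera-2 NC samples. Its level was -4.09, -4.28 and -3.31 in 2102Ep NC and -6.41, -5.45 and -6.50 in NTera-2 NC samples. These did not overlap, as was so for 77.9% of all assays, with a log2 difference of -2.23 ± 0.61 (SE, 4.69-fold lower in NTera-2, adjusted p = 0.0062 by limma). MiR-192* was among the weakest assays of card B. Of those measured in all 12 samples, 8.3% lay below it in 2102Ep NC and 2.1% in NTera-2 NC samples. In siSOX2 samples it was -4.41, -6.37 and -3.70 in 2102Ep and -6.02, -6.54 and -5.60 in NTera-2 cells, which overlapped (-1.23 ± 0.61, SE, adjusted p = 0.084). Between the siSOX2 arms it was called lower with the global median (-1.81) or with RNU44 and RNU48 (-4.58), and likewise between the NC arms. With the deposited dCt it was called lower in both arms too, but that value carries a gap in what the authors subtracted on card B. The subtracted value there was 24.3 to 25.0 cycles in 2102Ep samples and 16.3 to 16.9 in NTera-2 samples, so this call cannot count as support. U6 was not used for card B between the lines.

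Ratios within a sample need no reference RNA, because all 3 members were read on the same card. The level of 1 assay over another has no absolute meaning, as assays amplify unequally, but its difference between groups does. In 2102Ep NC samples the log2 ratio of miR-192 over miR-194 was 1.16, -1.59 and -0.96, and in siSOX2 samples -0.89, -1.38 and -0.47. In NTera-2 cells it was 2.06, 2.54 and 2.09 in NC and 2.89, 3.18 and 3.20 in siSOX2 samples. All siSOX2 values of NTera-2 lay above the controls, by 0.86 on average, and those of 2102Ep cells lay inside the control range, with a difference of -0.45. The exact two-sided permutation test gave p = 0.1 in NTera-2, the smallest that 3 against 3 samples allow, and p = 0.9 in 2102Ep cells. With the NTera-2 samples paired by number, the exact sign-flip permutation test gave p = 0.25, the smallest that 3 pairs allow.

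The ratio of miR-215 over miR-194 contains the same miR-194 values, so it is not independent of the first. It was 3.18, 3.51 and 3.58 in NC and 4.44, 3.86 and 4.23 in siSOX2 samples of NTera-2 cells, again without overlap and 0.76 higher on average (exact permutation p = 0.1, paired 0.25). In 2102Ep cells it was -0.05, -2.44 and 1.15 in NC and -1.72, -1.21 and -2.78 in siSOX2 samples, which overlapped (difference -1.45, exact permutation p = 0.3). MiR-192 over miR-215, which share the seed, overlapped between NC and siSOX2 in both lines (differences 1.00 in 2102Ep and 0.10 in NTera-2 cells, exact permutation p = 0.6 and 0.8).

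Between the lines the ratio of miR-192 over miR-194 was higher in NTera-2 cells by 2.69 in NC and by 4.001 in siSOX2 samples, which is 6.47-fold and 16.01-fold. For miR-215 over miR-194 the differences were 3.87 and 6.08. In none of these 4 comparisons did the lines overlap, and each exact permutation test gave its smallest possible p of 0.1. The ratio of miR-192 over miR-215 was lower in NTera-2 cells in siSOX2 samples (difference -2.08, no overlap, exact permutation p = 0.1) and overlapped in NC samples (-1.18, exact permutation p = 0.4, between -2.22 without 2102Ep NC replicate 3 and -0.56 without 2102Ep NC replicate 1). Over the 12 ratio comparisons the lowest Benjamini-Hochberg adjusted value was 0.171, so none passed, and with 3 samples a group none could have passed 0.05.

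**Figure D4:**
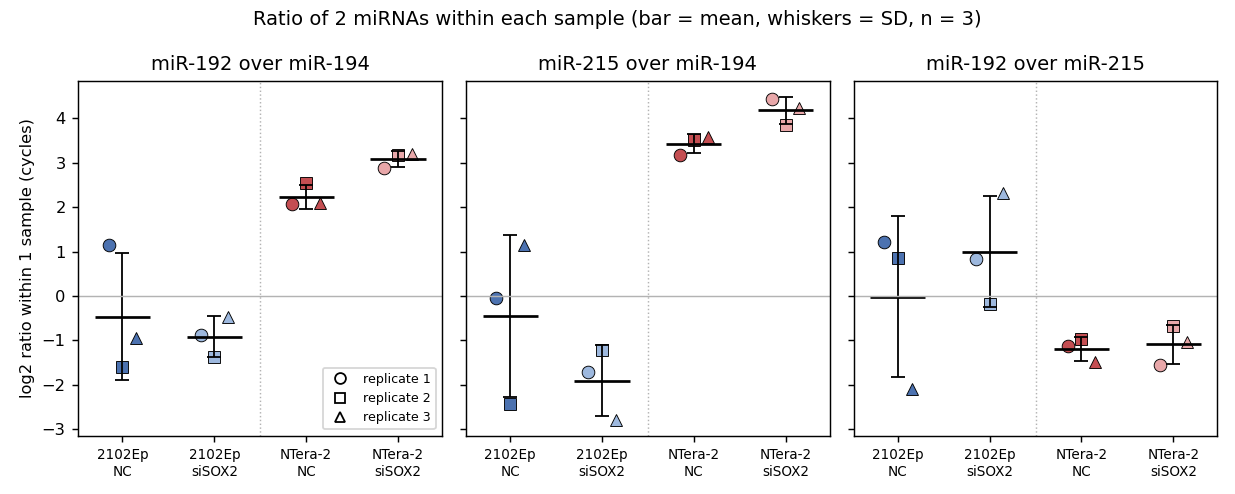
Log2 ratio of 2 of the miRNAs within each of the 12 samples (cycles, dCt of the second minus dCt of the first). Points are replicates, bars group means and whiskers SD (n = 3). Both ratios over miR-194 lie above 2 in all NTera-2 samples and between -2.78 and 1.16 in 2102Ep samples.

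Among the members the spread between replicates was widest for miR-215 and miR-192 in 2102Ep cells, and it entered the error of both lines, since the fit shares 1 spread per assay. In the NC samples of this line the SD of dCt was 1.61 cycles for miR-215 and 1.03 for miR-192, larger than that of 98.1% and 93.2% of 263 card A assays, whose median SD was 0.278. Different controls stood apart, replicate 1 for miR-192 and replicate 3 for miR-215. MiR-194 had an SD of 0.423 there. In NTera-2 cells the SD of the 3 members lay between 0.151 and 0.495, beside medians of 0.354 in NC and 0.267 in siSOX2 samples.

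The assays whose pattern over the 12 samples came closest to each member were searched on the global mean scale, among the 369 assays measured in all samples, by the root mean square difference after centring each assay on its own mean. For miR-194 they were miR-411 (0.399 cycles), miR-200c (0.516), miR-520b (0.544), miR-208b (0.586) and miR-205 (0.587). MiR-192 was closest to miR-551b* (0.366), followed by miR-30a-5p, miR-1291, miR-22* and miR-34b (0.461 to 0.492). MiR-215 had no assay so near, with miR-551b at 0.739, then miR-183, miR-373, miR-10b* and miR-128a (0.777 to 0.807). The members ranked far from each other: miR-192 came 164th and miR-215 261st by likeness to miR-194, and miR-215 came 207th by likeness to miR-192.

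Between the NC arms, 7 of the 9 tested members of the epithelial list were called lower in NTera-2 cells, beside 37% of all assays, while 1 was called higher and 1 did not pass, with a list median of -2.76 beside 0.17 over all assays. MiR-200b (-7.22), miR-200a (-6.52), miR-200c (-4.13) and miR-141 (-2.61) of the miR-200 family were among the 7. MiR-429, the remaining member of that family, was not tested, being measured in 0 of 3 samples of either 2102Ep group but in 3 of 3 of both NTera-2 groups (mean Ct 25.7 in NC and 26.0 in siSOX2 samples). Also called lower were miR-148a (-3.89), miR-203 (-2.76) and miR-885-5p (-1.23). MiR-7 was higher (1.497), and miR-375 gave -0.40. In the siSOX2 arms 7 of 9 were lower, beside 33.1% of all assays, and 1 higher, miR-375 being lower there (-1.21) and miR-885-5p not passing. With every reference miR-200a, miR-200b, miR-200c, miR-141, miR-148a and miR-203 were called lower in NTera-2 cells in both arms. MiR-7 turned to -0.83 in NC samples with RNU44 and RNU48. With the deposited dCt miR-7 stood at -6.85 there, but it was read on card B, so this value carries the gap in the subtracted value given above.

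Of the p53 list, 3 of 7 tested members were called lower and 1 higher in NTera-2 NC samples, beside 37% called lower and 77.3% called among all assays, with a list median of -0.56. The lower ones were miR-145 (-1.95), miR-34a (-1.45) and miR-605 (-2.46), and the higher one was miR-34a* (1.45), the passenger strand of miR-34a, which turned to -0.87 with RNU44 and RNU48. In siSOX2 samples again 3 of 7 were called lower (33.1% of all assays) and 1 higher, with a median of -0.09.

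Levels were also read for 8 embryonal carcinoma miRNAs of the miR-302 and miR-371 clusters. All 8 were measured in every sample, with group mean Ct between 13.9 and 26.1. The 3 neural miRNAs with an assay were measured in every sample too (group mean Ct 18.8 to 26.8), so detection alone does not check the label. Between the NC arms all 8 were called, as were 77.3% of all assays in either direction. Of the 8, 6 were higher in NTera-2 cells. The other 2 were called lower, as were 37% of all assays, namely miR-371-3p (-5.94) and miR-372 (-6.14). After siSOX2, 0 of 8 passed in 2102Ep cells (14.6% of all assays) and 1 in NTera-2 cells (5.54% of all assays). The 1 was miR-372, which fell by 1.40 on the log2 scale (adjusted p = 0.026). This call was lost with the global mean (adjusted p = 0.054), the global median and the replicate block (adjusted p = 0.065). Of the miRNAs of other tissues, miR-218 of the neural list fell by 0.73 in 2102Ep (adjusted p = 0.010) and rose by 0.77 in NTera-2 cells (adjusted p = 0.023), both calls lost with RNU44 and RNU48. The 2102Ep call was also lost with the global median (adjusted p = 0.057), and the NTera-2 call with U6 (adjusted p = 0.090) and the replicate block (adjusted p = 0.068). Of the muscle and mesenchyme list miR-145 passed, in NTera-2 cells, with the limit given above. MiR-143 of this list passed in 2102Ep cells with the replicate block but not in the main fit. Of the blood and serum list 0 of 3 tested miRNAs passed in the first line and 0 of 4 in the second. Over all assays these shares were 14.6% and 5.54%. The part of these miRNAs in the values of miR-192, miR-194 and miR-215 was not tested.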

How the data were processed

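MiRNAs of 12 samples were quantified by qRT-PCR with pre-amplification on TaqMan cards A and B. The raw Ct values (log2 scale) were deposited by the authors without normalisation for 507 rows, 6 of them controls. The dCt values (log2 scale) came from the authors' subtraction of 1 value per sample and card, which for card A was the average Ct of U6 and miR-16 within 0.0001 cycles. The third table, of fold ratios with a p-value, holds the authors' own comparison and was not used. From row 106 the raw Ct column of 2102Ep siSOX2 replicate 3 is out of line by 1 row, so the raw values below it were rebuilt from dCt and that subtracted value.

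Assays measured in at least 2 of 3 samples of each group compared were tested two-sided on minus dCt with a moderated linear model of 4 group means (limma 3.58.1, R 4.3.3), fitted to all 12 samples and adjusted by Benjamini-Hochberg over every assay tested (called at 0.05), after a test on simulated data. The lines were compared on raw Ct against the mean per card of the 369 assays measured in all samples. Ratios between members were compared with exact permutation tests. Those other than miR-192 over miR-194 within a line were added after seeing the data. Named were the members, the passenger strands of their hairpins, the 5 most alike assays of each, and the members of both lists past the threshold, or the 2 largest differences where none passed. The members and lists were chosen with earlier results of these data known. Alternatives were other references, filters and tests, a replicate block, and each sample left out. In NTera-2 cells the residual dCt of an NC sample and the siSOX2 sample sharing its number correlated by 0.118, 0.265 and 0.160, above 0.1 throughout. The main fit does not use this possible pairing, so its p-values in this line are those of unpaired samples. Only the replicate block and the sign-flip tests use it. No 2 samples held identical values. PCR gives no molecule counts, and the number of samples limits the precision. How separate the replicate cultures were is not given in the sources used here, so p-values measure the spread between these samples.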

Additional observations from a re-analysis of the deposited data

How the results depend on the processing

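The 3 members kept the absence of a call after siSOX2 in both lines under all references, filters and tests run, except miR-215 in 2102Ep cells without NC replicate 2. MiR-194 kept its direction in NTera-2 cells and its call between the lines throughout. Several differences of miR-192 and miR-215 changed sign with the reference, among them the called difference of miR-215 between the siSOX2 arms. After siSOX2, miR-192 gave 0.094 with RNU44 and RNU48 in 2102Ep and -0.14 (U6) and -0.065 (RNU44 and RNU48) in NTera-2 cells, and miR-215 gave 0.16 (global mean), 0.13 (global median) and 0.12 (miR-16 alone, added after seeing the data) in NTera-2 cells. The difference of the responses was -0.16 for miR-192 with RNU44 and RNU48. Between the NC arms miR-192 gave -4.62 (U6), 0.085 (global median), -1.95 (RNU44 and RNU48) and -4.07 (deposited dCt), and miR-215 gave -3.44, -0.78 and -2.89 with U6, RNU44 and RNU48, and the deposited dCt. Between the siSOX2 arms the same 3 references gave -4.53, -2.11 and -3.78 for miR-192, all of them calls. For miR-215 they gave -2.46, -0.034 and -1.70. With U6 (adjusted p = 0.0042 by limma) and the deposited dCt (adjusted p = 0.035) these were calls against the direction of the main fit. The unequal-variance test left miR-215 at 2.13 without a call (adjusted p = 0.058).

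Counts of called assays fell from 63 to 8 in 2102Ep, from 25 to 3 in NTera-2 and from 24 to 6 for the difference with the unequal-variance test. In NTera-2 cells they were 15 with the global mean, 15 of the 256 card A assays tested with miR-16 alone, 16 with the global median or RNU44 and RNU48, and 11 with its 6 samples alone. For the difference they were 15 with the global median and 41 with RNU44 and RNU48. With the replicate block 9 assays were called in NTera-2 cells and 4 for the difference, and no call of a member changed. In 2102Ep cells same-numbered samples correlated by 0.157, 0.168 and 0.064, not all above 0.1, although each sample correlated best with its own number. Whether same-numbered samples are pairs is not settled by these values in either line. With the block the ratio of miR-192 over miR-194 in NTera-2 cells differed by 0.86 (exact sign-flip permutation p = 0.25).

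Leaving out 1 sample at a time gave 41 to 57 calls in 2102Ep, 10 to 24 in NTera-2 (lowest without NC replicate 3) and 6 to 29 for the difference. In 2102Ep cells the values ran from -0.62 to 0.33 for miR-192, from -0.027 to 0.39 for miR-194 and from -2.05 to -0.45 for miR-215, and in NTera-2 cells from -0.12 to 0.33 for miR-192 and from -0.25 to 0.11 for miR-215. The difference of the responses ran from -0.29 to 0.66 for miR-192 and from 0.38 to 1.99 for miR-215. Between the lines miR-192 ran from -0.71 to 0.084 and miR-215 from 0.042 to 1.54 in NC, and from -0.15 to 0.26 and from 1.67 to 2.51 in siSOX2 samples. The ratio in 2102Ep cells ran from -1.01 to 0.36 for miR-192 over miR-194 and from -2.45 to -0.66 for miR-215 over miR-194 (without NC replicates 2 and 3), and that of miR-192 over miR-215 from -0.042 to 1.62 in the same line and, in NTera-2 cells, from -0.10 to 0.34. The cause of these shifts was not tested.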
